A study of Arabidopsis thaliana with 9 samples.

Results

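The genes described here are 40 loci of Arabidopsis thaliana phenylpropanoid, flavonoid and anthocyanin metabolism. They were chosen by locus identifier from the 33602 genes in the deposited count tables. The rule uses no measured value, but the 40 genes were chosen with earlier results of these data known. They were 8 genes of the general phenylpropanoid steps (PAL1 to PAL4, C4H and 4CL1 to 4CL3), 6 early flavonoid genes (CHS, CHI, CHIL, F3H, F3'H and FLS1), 4 flavonol glycosyltransferases, 9 late anthocyanin genes, 3 flavonol MYB activators, 8 members of the anthocyanin MYB-bHLH-TTG1 complexes and 2 MYB repressors. RNA came from entire rosettes of soil-grown plants 21 days old, kept in cycles of 16 h light and 8 h dark. There were 3 pdx3-3 libraries (insertion line SALK_054167C), 3 pdx3-4 libraries (insertion line GK-260E03) and 3 wild-type libraries, all in the Col-0 ecotype. The design names the replicates as biological, each genotype is represented by 1 line, and both mutants are compared with the same 3 wild-type libraries. PDX3 encodes the enzyme that oxidises pyridoxine and pyridoxamine phosphates to pyridoxal phosphate, the active form of vitamin B6.

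In the general phenylpropanoid pathway, phenylalanine ammonia-lyase (PAL), cinnamate 4-hydroxylase (C4H) and 4-coumarate:CoA ligase (4CL) turn phenylalanine into coumaroyl-CoA, the substrate shared by lignin, sinapate esters and flavonoids. The early flavonoid enzymes build dihydroflavonols, which flavonol synthase and glycosyltransferases turn into the flavonol glycosides of leaves. Dihydroflavonol reductase and the late enzymes take the same intermediates to anthocyanins, the red and purple pigments of stressed or young tissue. In Arabidopsis the early genes are known targets of MYB11, MYB12 and MYB111, and the late genes of complexes of a MYB, a bHLH protein and the WD40 protein TTG1. PAL carries its own built-in catalytic group and does not use pyridoxal phosphate.

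PDX3 itself (AT5G49970, chr5:20329103-20333172) checked the labels. It stood at 9.24, 8.22 and 10.8 CPM (the count over its library's total, times 1000000) in pdx3-3, at 43.4, 51.5 and 42.7 CPM in pdx3-4 and at 90.1, 88.9 and 78.7 CPM in wild type. The 3 genotypes did not overlap, and the log2 change of PDX3 was -3.25 (SE 0.12, adjusted p = 9.54e-08) for pdx3-3 and -0.96 (SE 0.11, adjusted p = 4.36e-05) for pdx3-4. Adjusted p-values here and throughout are from edgeR's quasi-likelihood test on counts, with Benjamini-Hochberg adjustment over the 18783 genes tested, and a gene is called at under 0.05.

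Libraries held 15912737 to 21938941 counts. In pdx3-3, chloroplast-encoded genes took 0.536% of the counts of library 1 and 0.174% of library 2, against 0.0162% to 0.0532% in the other 7 libraries. Results that rest on those 2 libraries are given without them where that ends a call or moves a called change by over 1.5 times. The 5 leaf markers summed to 46130 to 50984 CPM in pdx3-3, 46282 to 49396 CPM in pdx3-4 and 58296 to 60135 CPM in wild type. The 5 root markers were at or near 0 in every library (0 CPM in pdx3-3, 0 to 0.0961 CPM in pdx3-4 and 0.107 to 0.154 CPM in wild type). The 5 trichome markers summed to 24.6 to 30.4 CPM in pdx3-3, 34.6 to 39.1 CPM in pdx3-4 and 19.4 to 50.1 CPM in wild type. The 5 flower markers summed to 2.20 to 4.58 CPM in pdx3-3, 0.721 to 2.21 CPM in pdx3-4 and 3.76 to 4.71 CPM in wild type. Within that list AG, named with SEP3 after their values were seen, was 5.49-fold lower in pdx3-3 (adjusted p = 5.92e-05) and 10.9-fold lower in pdx3-4 (adjusted p = 1.13e-05). SEP3 went the other way in pdx3-3 (log2 1.36, adjusted p = 0.0142) but passed no threshold for pdx3-4, where its change was -0.07 on the log2 scale (adjusted p = 0.905). The 5 seed markers summed to 0.763 to 0.880 CPM in pdx3-3, 1.11 to 1.45 CPM in pdx3-4 and 0.618 to 1.18 CPM in wild type. The part that the leaf or flower marker levels play in the results was not tested. In whole-rosette RNA, fewer cells of a type and less RNA per cell cannot be told apart.

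Of the 40 genes, 34 passed the filter on low counts and were tested. In pdx3-3, 20 of the 34 fell, none rose and 14 were not called, with a median log2 change of -0.54; over all genes tested 36.4% were called, 17.5% lower and 19% higher, and the median was -0.03. In pdx3-4, 22 fell, none rose and 12 were not called, with a median of -0.75; over all genes tested 39.2% were called, 18.4% lower and 20.9% higher, and the median was -0.01. None rose at an unadjusted p under 0.05 either, nor by DESeq2 or limma-voom. The 2 comparisons share their wild-type libraries. Per kilobase of exon, the wild-type levels spanned MYBL2 (112 ± 4.45 CPM per kb, SD, n = 3), CHS (88.6 ± 5.91) and C4H (54.8 ± 3.07) at the top, and TT8 (0.345 ± 0.144) and GL3 (0.260 ± 0.0718) at the bottom of the tested genes. C4H, PAL2 (50.4 ± 4.76), 4CL1 (49.5 ± 2.52) and PAL1 (47.3 ± 1.82) came next, each within 1 SD of its neighbour in that order, whereas CHS and MYBL2 stood clear of them.

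**Figure D1:**
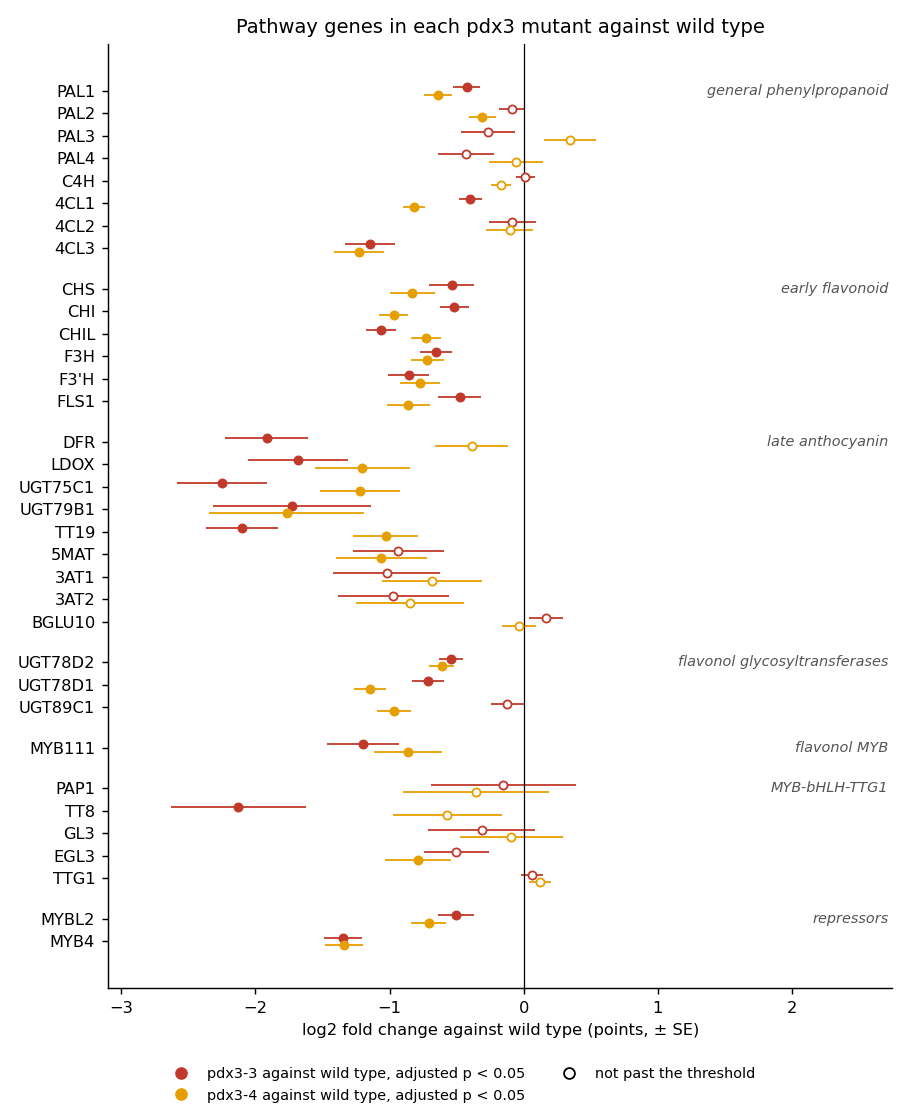
Log2 fold change of each of the 34 tested genes in pdx3-3 and in pdx3-4, each against wild type, ordered by pathway step; points are edgeR estimates, bars are standard errors, and filled points have an adjusted p under 0.05. The 6 early genes are all filled and left of 0 in both mutants, and no filled point lies right of 0.

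Stretches upstream of 4 genes are shown because the early gene CHS begins the flavonoid branch, CHIL had the smallest adjusted p of the early genes in pdx3-3, and DFR and UGT89C1 differed between the mutants. Each is the 250 bases before the annotated start, read 5′ to 3′ on the gene's strand from TAIR10.1. Capitals mark a MYB element (ACCTACC, known as AC-I; ACCAACC, known as AC-II; ACCTAAC, known as AC-III; and the variant ACCAAAC; all on either strand) or the G-box CACGTG, the kind of site bound by bHLH and bZIP factors. The windows are chr5:4488226-4488475 for CHS (plus strand), chr5:1563036-1563285 for CHIL (plus strand), chr5:17166033-17166282 for DFR (minus strand) and chr1:1821895-1822144 for UGT89C1 (minus strand).
CHS: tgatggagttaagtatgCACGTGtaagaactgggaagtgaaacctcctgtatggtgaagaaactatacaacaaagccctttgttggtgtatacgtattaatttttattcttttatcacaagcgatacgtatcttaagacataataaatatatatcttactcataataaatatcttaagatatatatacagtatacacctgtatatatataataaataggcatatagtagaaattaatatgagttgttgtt
CHIL: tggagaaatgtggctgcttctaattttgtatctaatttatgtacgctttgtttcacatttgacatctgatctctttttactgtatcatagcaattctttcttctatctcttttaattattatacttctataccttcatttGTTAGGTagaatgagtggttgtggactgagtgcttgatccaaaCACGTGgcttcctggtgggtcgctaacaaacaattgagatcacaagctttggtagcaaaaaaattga
DFR: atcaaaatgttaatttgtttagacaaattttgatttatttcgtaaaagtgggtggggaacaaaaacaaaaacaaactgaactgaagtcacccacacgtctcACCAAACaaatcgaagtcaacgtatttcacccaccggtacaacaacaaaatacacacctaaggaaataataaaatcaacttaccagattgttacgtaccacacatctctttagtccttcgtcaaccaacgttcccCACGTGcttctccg
UGT89C1: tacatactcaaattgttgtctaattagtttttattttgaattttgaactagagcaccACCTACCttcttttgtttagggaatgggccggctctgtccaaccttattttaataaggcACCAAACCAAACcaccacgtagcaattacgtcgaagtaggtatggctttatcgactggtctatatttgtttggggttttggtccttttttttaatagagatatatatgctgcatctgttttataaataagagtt
CHS has a G-box starting 233 bases before its start. CHIL has a MYB element at 110 and a G-box at 67 bases, and DFR has a MYB element at 149 and a G-box at 14 bases. UGT89C1 has no G-box and 3 MYB elements, at 193, 134 and 129 bases, the last pair overlapping. A MYB element occurs in 13 of the 40 windows (32.5%) and a G-box in 9 (22.5%), against 13.7% and 6.49% of the 27443 windows of all protein-coding genes. Both occur together in 4 of the 40 windows (10%), against 0.966% of all windows. By step, the MYB element is in 4 of 8 general, 2 of 6 early, 2 of 9 late and 2 of 4 flavonol glycosyltransferase windows, and the G-box in 1, 3, 2 and 0 of them. A match of letters is a description and shows no binding.

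In the general phenylpropanoid steps, 3 of 8 genes fell in pdx3-3 (median log2 change -0.33) and 4 of 8 in pdx3-4 (median -0.24). The shares lower over all genes tested were 17.5% in pdx3-3 and 18.4% in pdx3-4. 4CL1 (AT1G51680, chr1:19158746-19161737), the ligase that mainly serves lignin, was at 107, 96.0 and 97.3 CPM in pdx3-3, at 83.1, 72.6 and 68.2 CPM in pdx3-4 and at 134, 124 and 122 CPM in wild type. All 6 mutant libraries lay below all 3 wild-type libraries, and the log2 change was -0.40 (SE 0.08, adjusted p = 0.0038) in pdx3-3 and -0.82 (SE 0.08, adjusted p = 2.97e-05) in pdx3-4. 4CL3 (AT1G65060), the ligase associated with flavonoids, was at 9.18, 8.03 and 7.01 CPM in pdx3-3, at 8.68, 7.98 and 6.07 CPM in pdx3-4 and at 20.6, 17.7 and 12.8 CPM in wild type. Its groups did not overlap with wild type either, although the wild-type libraries themselves spread widely. It fell by 1.14 on the log2 scale in pdx3-3 (SE 0.19, adjusted p = 0.000774) and by 1.23 in pdx3-4 (SE 0.19, adjusted p = 0.000438). PAL1 (AT2G37040), a main entry enzyme of the pathway, was at 123, 100.3 and 98.9 CPM in pdx3-3, at 102, 92.6 and 82.6 CPM in pdx3-4 and at 144, 140 and 133 CPM in wild type, with log2 changes of -0.43 for pdx3-3 (adjusted p = 0.00792) and -0.64 for pdx3-4 (adjusted p = 0.000625). Of the 8 general genes, 4CL3 had the largest fold change in each mutant.

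The other 5 general genes showed no call in pdx3-3. PAL2, the other main lyase, had log2 changes of -0.09 (adjusted p = 0.533) in pdx3-3 and -0.31 (adjusted p = 0.0295) in pdx3-4. Leaving out wild-type library 1 or 2, or pdx3-4 library 2 or 3, ended that call (adjusted p 0.0845 to 0.115). C4H, the membrane hydroxylase, was at 130, 115 and 113 CPM in pdx3-3, at 107, 108 and 101 CPM in pdx3-4 and at 116, 107 and 119 CPM in wild type, with either mutant overlapping wild type (adjusted p = 0.909 for pdx3-3 and 0.0912 for pdx3-4). C4H and PAL3 were chosen for full values after these were seen. PAL3, a minor lyase, was at 14.5, 14.9 and 16.8 CPM in pdx3-3, at 19.8, 25.3 and 25.1 CPM in pdx3-4 and at 13.5, 14.7 and 25.4 CPM in wild type, so that wild-type library 3 set its spread. Without that library PAL3 rose in pdx3-4 by 0.66 on the log2 scale (adjusted p = 0.00218), against 0.35 (adjusted p = 0.189) with it. PAL4 had log2 changes of -0.43 (adjusted p = 0.137) in pdx3-3 and -0.06 (adjusted p = 0.85) in pdx3-4, and without wild-type library 3 it fell in pdx3-3 by 0.66 (adjusted p = 0.00315). 4CL2 had -0.08 for pdx3-3 (adjusted p = 0.741) and -0.11 for pdx3-4 (adjusted p = 0.67).

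All 6 early flavonoid genes fell in both mutants, with median log2 changes of -0.59 in pdx3-3 and -0.80 in pdx3-4. Over all genes tested, 17.5% fell in pdx3-3 and 18.4% in pdx3-4. Chalcone isomerase-like CHIL (AT5G05270, chr5:1563286-1565324), a non-catalytic partner that makes chalcone synthase more selective, was at 9.87, 7.78 and 9.54 CPM in pdx3-3, at 12.6, 10.8 and 10.8 CPM in pdx3-4 and at 19.5, 18.3 and 16.8 CPM in wild type. Neither mutant overlapped wild type, and CHIL fell by 1.07 (SE 0.11, adjusted p = 3.34e-05) in pdx3-3 and by 0.73 (SE 0.11, adjusted p = 0.000379) in pdx3-4 on the log2 scale. Chalcone isomerase CHI (TT5, AT3G55120, chr3:20430059-20431597), which closes the flavanone ring, was at 10.9, 10.9 and 9.87 CPM in pdx3-3, at 8.21, 7.88 and 6.99 CPM in pdx3-4 and at 16.8, 13.3 and 13.5 CPM in wild type. Its 3 groups were fully separate, with pdx3-4 lowest, and the log2 changes were -0.52 (SE 0.11, adjusted p = 0.00346) in pdx3-3 and -0.97 (SE 0.11, adjusted p = 5.39e-05) in pdx3-4. Flavanone 3-hydroxylase F3H (AT3G51240) was at 12.4, 16.2 and 12.0 CPM in pdx3-3, at 13.7, 12.1 and 12.9 CPM in pdx3-4 and at 22.5, 18.1 and 21.0 CPM in wild type. The mutants overlapped each other and not wild type, with log2 changes of -0.65 for pdx3-3 (adjusted p = 0.00158) and -0.72 for pdx3-4 (adjusted p = 0.000789).

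Chalcone synthase CHS (TT4, AT5G13930, chr5:4488476-4490264), which catalyses the first committed flavonoid step, was chosen for full values after they were seen. It was at 129, 120 and 76.0 CPM in pdx3-3, at 95.2, 82.2 and 87.2 CPM in pdx3-4 and at 157, 156 and 139 CPM in wild type. Library 3 of pdx3-3 was the lowest of the 9, and CHS fell by 0.54 (SE 0.17, adjusted p = 0.0285) in pdx3-3 and by 0.83 (SE 0.17, adjusted p = 0.00273) in pdx3-4 on the log2 scale. In pdx3-3 the log2 change was -0.33 without library 3, and leaving out wild-type library 1 (adjusted p = 0.0714) or 2 (adjusted p = 0.0806) ended the call. F3'H (TT7), the hydroxylase that sets the quercetin and cyanidin pattern, changed by -0.86 in pdx3-3 (adjusted p = 0.00118) and by -0.77 in pdx3-4 (adjusted p = 0.00185). Flavonol synthase FLS1 changed by -0.48 in pdx3-3 (adjusted p = 0.0383) and by -0.86 in pdx3-4 (adjusted p = 0.00175). In 6 of the 9 fits that left out 1 library FLS1 was not called in pdx3-3 (adjusted p 0.053 to 0.148). Nor was it called there by limma-voom (adjusted p = 0.0519), with library size only (adjusted p = 0.0597) or with only the 2 genotypes compared (adjusted p = 0.0555). Its pdx3-3 libraries overlapped wild type, with 12.2 CPM in pdx3-3 library 2 and 12.0 CPM in wild-type library 3.

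**Figure D2:**
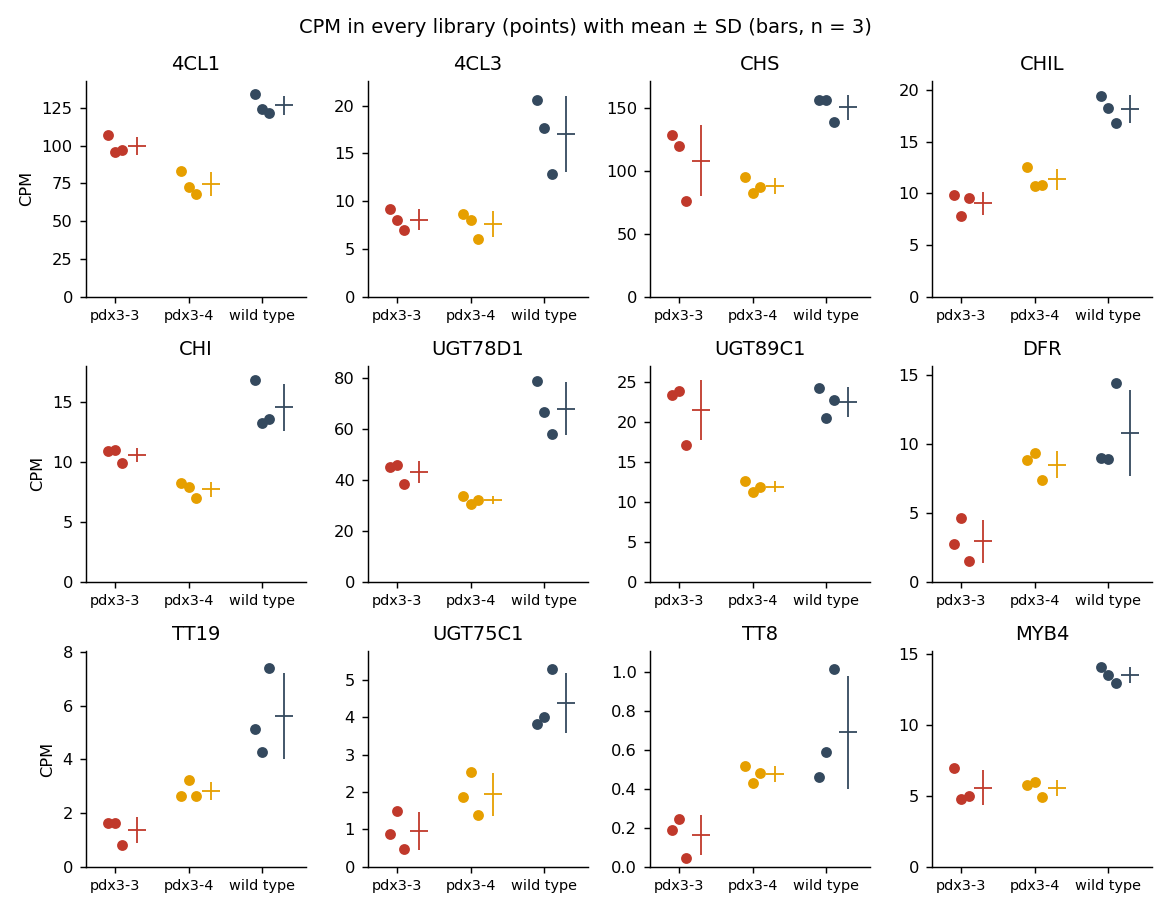
CPM of 12 genes in each library (points, with the mean and SD beside them; each panel has its own linear axis from 0), with pdx3-3, pdx3-4 and wild type from left to right. 4CL3, CHS, CHIL and MYB4 are below all wild-type libraries in all 6 mutant libraries, DFR is below them in the 3 pdx3-3 libraries, and UGT89C1 in the 3 pdx3-4 libraries.

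In the flavonol branch, glycosyltransferases attach the sugars of the leaf flavonol glycosides. Here 2 of the 3 tested fell in pdx3-3 (median -0.54) and 3 of 3 in pdx3-4 (median -0.97), against 17.5% and 18.4% over all genes tested. The rhamnosyltransferase gene UGT78D1 (AT1G30530) was at 45.1, 45.8 and 38.2 CPM in pdx3-3, at 33.5, 30.3 and 31.8 CPM in pdx3-4 and at 78.9, 66.5 and 58.1 CPM in wild type. Its genotypes did not overlap, and it fell by 0.71 on the log2 scale in pdx3-3 (SE 0.12, adjusted p = 0.000861) and by 1.14 in pdx3-4 (SE 0.12, adjusted p = 3.38e-05). UGT78D2 (AT5G17050), whose product glucosylates flavonols and anthocyanidins, was at 19.0, 17.8 and 17.3 CPM in pdx3-3, at 19.0, 15.9 and 16.5 CPM in pdx3-4 and at 25.4, 26.6 and 23.5 CPM in wild type. Both mutants lay below wild type and overlapped each other, with log2 changes of -0.54 for pdx3-3 (adjusted p = 0.000964) and -0.61 for pdx3-4 (adjusted p = 0.000382). UGT89C1 (AT1G06000, chr1:1820308-1821894), the flavonol 7-O-rhamnosyltransferase gene, was at 23.4, 24.0 and 17.2 CPM in pdx3-3, at 12.6, 11.3 and 11.9 CPM in pdx3-4 and at 24.3, 20.6 and 22.7 CPM in wild type. The pdx3-3 libraries overlapped wild type (log2 -0.12, adjusted p = 0.471), while every pdx3-4 library lay below both other genotypes (log2 -0.97, SE 0.13, adjusted p = 0.000151). UGT78D3, which adjoins UGT78D2 and was not tested, had 0, 1 and 1 counts in pdx3-3, 0, 0 and 1 in pdx3-4 and 4, 2 and 1 in wild type. How the counting treated reads shared by these similar genes is not given in the sources used here.

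Of the 9 late anthocyanin genes, 5 fell in pdx3-3 (median log2 change -1.68) and 5 in pdx3-4 (median -1.03), against 17.5% and 18.4% over all genes tested. LDOX, UGT75C1, UGT79B1 and TT19 (4 of the 9) fell in both. TT19 (AT5G17220, chr5:5658416-5659661), a glutathione S-transferase needed to bring anthocyanin to the vacuole, was at 1.63, 1.63 and 0.811 CPM in pdx3-3, at 2.63, 3.22 and 2.65 CPM in pdx3-4 and at 5.15, 4.28 and 7.38 CPM in wild type. The 3 genotypes were separate in that order, and TT19 was 4.29-fold lower in pdx3-3 (SE of the log2 change 0.27, adjusted p = 0.000136) and changed by -1.03 (SE 0.24, adjusted p = 0.00649) on the log2 scale in pdx3-4. UGT75C1 (AT4G14090), the anthocyanin 5-O-glucosyltransferase gene, was at 0.880, 1.49 and 0.477 CPM in pdx3-3, at 1.88, 2.55 and 1.40 CPM in pdx3-4 and at 3.81, 4.01 and 5.30 CPM in wild type. Both mutants lay below wild type and overlapped each other, with log2 changes of -2.25 in pdx3-3 (SE 0.33, adjusted p = 0.000384) and -1.22 in pdx3-4 (SE 0.30, adjusted p = 0.00808). Dihydroflavonol reductase DFR (AT5G42800, chr5:17164093-17166032), the first late step, was at 2.70, 4.61 and 1.53 CPM in pdx3-3, at 8.82, 9.33 and 7.37 CPM in pdx3-4 and at 9.01, 8.93 and 14.4 CPM in wild type. The pdx3-3 libraries lay below all others (log2 -1.92, SE 0.31, adjusted p = 0.000667), and the pdx3-4 libraries overlapped wild type (log2 -0.39, SE 0.27, adjusted p = 0.293).

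LDOX, UGT79B1 and BGLU10 were chosen for full values after they were seen. LDOX, which makes the anthocyanidin, was at 3.33, 4.11 and 1.29 CPM in pdx3-3, at 4.32, 4.18 and 3.57 CPM in pdx3-4 and at 6.49, 6.70 and 13.9 CPM in wild type, with log2 changes of -1.68 for pdx3-3 (adjusted p = 0.00489) and -1.20 for pdx3-4 (adjusted p = 0.02). Wild-type library 3 stood well above the other 2 here and in DFR, and without it the change of LDOX in pdx3-4 was -0.79 (adjusted p = 0.07). The same library had the lowest sum of the 5 trichome markers, at 19.4 CPM, while wild-type libraries 1 and 2 had 50.1 and 41.8 CPM; the part of this in the late genes was not tested. Leaving out pdx3-4 library 2 (adjusted p = 0.0545) or 3 (adjusted p = 0.071) also ended that call. The anthocyanin xylosyltransferase gene UGT79B1 was at 0.880, 0.842 and 0.0477 CPM in pdx3-3, at 0.610, 0.721 and 0.337 CPM in pdx3-4 and at 1.96, 1.05 and 2.57 CPM in wild type. It changed by -1.73 on the log2 scale in pdx3-3 (adjusted p = 0.0406) and by -1.76 in pdx3-4 (adjusted p = 0.0324). Without pdx3-3 library 3 the change in pdx3-3 was -1.14 (adjusted p = 0.0656), and leaving out other single libraries gave adjusted p up to 0.11 in pdx3-3 and 0.121 in pdx3-4. The malonyltransferase gene 5MAT had log2 changes of -0.93 (adjusted p = 0.0538) in pdx3-3 and -1.06 (adjusted p = 0.0291) in pdx3-4. The coumaroyltransferase gene 3AT1 was not called, at -1.02 for pdx3-3 (adjusted p = 0.0677) and -0.68 for pdx3-4 (adjusted p = 0.177). Its relative 3AT2 was not called either, at -0.97 for pdx3-3 (adjusted p = 0.0921) and -0.85 for pdx3-4 (adjusted p = 0.121). The calls of all 3 acyltransferase genes moved with single libraries. In pdx3-4, 5MAT was not called without wild-type library 3 (adjusted p = 0.11) or pdx3-4 library 1 (adjusted p = 0.101) or 3 (adjusted p = 0.0817). It was called in pdx3-3 without wild-type library 1 (adjusted p = 0.0479) or pdx3-3 library 1 (adjusted p = 0.0272). In the same way 3AT1 was called in pdx3-3 without pdx3-3 library 1 (adjusted p = 0.0497) or pdx3-4 library 2 (adjusted p = 0.0491), and 3AT2 passed the threshold without wild-type library 1, for pdx3-3 at adjusted p = 0.0222 and for pdx3-4 at adjusted p = 0.0293. BGLU10, an anthocyanin glucosyltransferase of the glycosyl hydrolase family, was at 25.4, 29.2 and 25.4 CPM in pdx3-3, at 27.7, 20.4 and 21.2 CPM in pdx3-4 and at 21.5, 25.5 and 21.3 CPM in wild type, overlapping throughout (adjusted p = 0.334 for pdx3-3 and 0.847 for pdx3-4). Per kilobase of exon BGLU10 had the highest wild-type level of the late genes, at 12.0 ± 1.23 CPM per kb, with DFR next at 7.09 ± 2.06 (SD, n = 3).

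**Figure D3:**
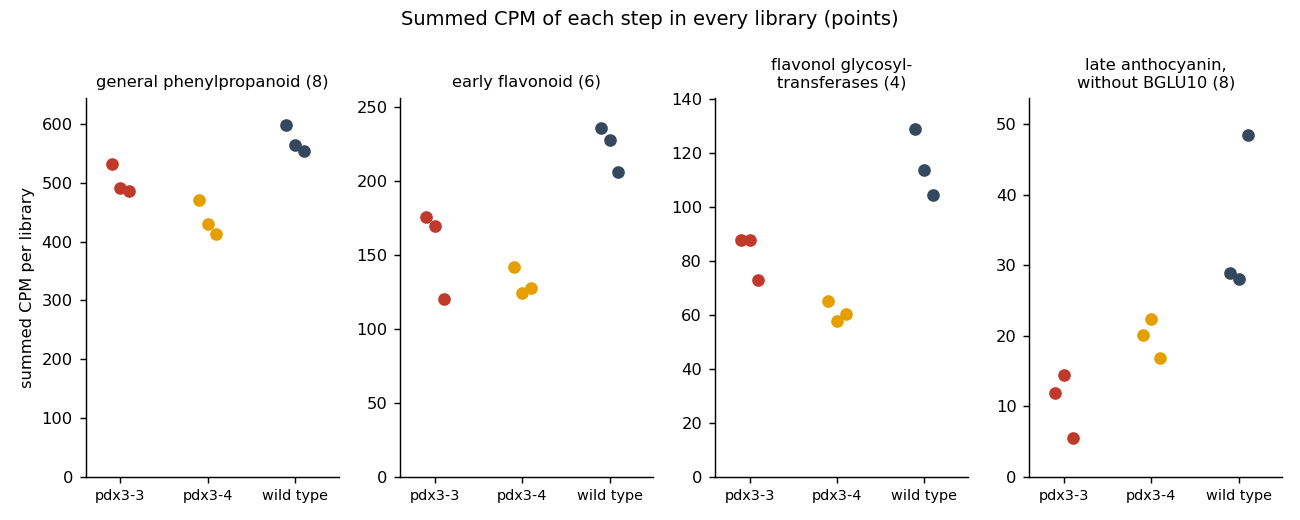
Summed CPM of the general, early, flavonol glycosyltransferase and late genes (the last without BGLU10) in each library, with pdx3-3, pdx3-4 and wild type from left to right on axes from 0. Early sums average 155 ± 30.1 CPM in pdx3-3, 131 ± 9.50 CPM in pdx3-4 and 223 ± 15.4 CPM in wild type, and late sums 10.6 ± 4.61 CPM in pdx3-3, 19.8 ± 2.76 CPM in pdx3-4 and 35.2 ± 11.6 CPM in wild type (SD, n = 3 each).

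Summed over each step, all mutant libraries lay below all wild-type libraries for the general, early and flavonol glycosyltransferase genes. The same held for the late genes, with or without BGLU10. The general sums averaged 504 ± 25.3 CPM in pdx3-3, 438 ± 29.8 CPM in pdx3-4 and 572 ± 23.6 CPM in wild type (SD, n = 3 each). The flavonol glycosyltransferase sums averaged 82.7 ± 8.54 CPM in pdx3-3, 60.9 ± 3.79 CPM in pdx3-4 and 116 ± 12.3 CPM in wild type. The early sums were 176, 169 and 121 CPM in pdx3-3, 142, 125 and 127 CPM in pdx3-4 and 236, 228 and 206 CPM in wild type, so that pdx3-4 was on average lowest and pdx3-3 library 3 reached below it. The late sums without BGLU10 ran the other way between the mutants, at 11.9, 14.5 and 5.53 CPM in pdx3-3, 20.1, 22.4 and 16.9 CPM in pdx3-4 and 28.9, 28.0 and 48.5 CPM in wild type. Late as a percentage of early, without BGLU10, was 6.80, 8.54 and 4.59 in pdx3-3, 14.1, 18.0 and 13.3 in pdx3-4 and 12.3, 12.3 and 23.5 in wild type. The pdx3-3 values were below all others, and the pdx3-4 values fell within the wild-type range. With BGLU10 the percentages were 24.2 ± 2.56 in pdx3-3, 32.6 ± 2.40 in pdx3-4 and 26.3 ± 6.70 in wild type (SD, n = 3 each), and pdx3-3 no longer stood apart from wild type. Leaving BGLU10 out was chosen after seeing the data, and the sums, which CHS dominates in the early group, are given as a description with no test.

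Among the activators of the early genes, MYB111 (AT5G49330) was the only flavonol MYB gene tested and fell in both mutants. It was at 1.19, 0.743 and 0.906 CPM in pdx3-3, at 0.891, 1.44 and 1.20 CPM in pdx3-4 and at 2.47, 1.78 and 1.98 CPM in wild type, with no overlap of either mutant with wild type. The log2 change was -1.20 in pdx3-3 (SE 0.27, adjusted p = 0.00509) and -0.86 in pdx3-4 (SE 0.25, adjusted p = 0.0204). In pdx3-4 it was not called without wild-type library 1 (adjusted p = 0.0779) or pdx3-4 library 1 (adjusted p = 0.0769) or 3 (adjusted p = 0.0514). MYB12 had 4, 8 and 7 counts in pdx3-3, 4, 3 and 6 in pdx3-4 and 6, 9 and 5 in wild type, and MYB11 at most 4 counts in any library. Neither passed the filter on low counts.

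Of the anthocyanin complex genes, 5 of 8 were tested, and 1 of the 5 fell in each mutant, TT8 in pdx3-3 and EGL3 in pdx3-4. This is near the 17.5% of all genes tested that fell in pdx3-3 and the 18.4% that fell in pdx3-4. TT8 (AT4G09820), a bHLH partner that also acts on its own promoter, had 3, 5 and 1 counts in pdx3-3, 11, 9 and 10 in pdx3-4 and 9, 13 and 19 in wild type. Its pdx3-3 libraries lay below all others (log2 -2.13, SE 0.51, adjusted p = 0.00726), and its pdx3-4 libraries overlapped wild type (log2 -0.57, SE 0.41, adjusted p = 0.301). The difference between the mutants was not called (log2 -1.56, adjusted p = 0.121). EGL3 (AT1G63650), another bHLH partner, was at 2.58, 2.23 and 1.76 CPM in pdx3-3, at 1.78, 2.02 and 1.54 CPM in pdx3-4 and at 2.42, 2.37 and 4.17 CPM in wild type. Wild-type library 3 was again highest, and the change in pdx3-4 was -0.79 (adjusted p = 0.0257) with it and -0.50 (adjusted p = 0.0893) without it. It was also not called without pdx3-4 library 1 (adjusted p = 0.0686) or 3 (adjusted p = 0.0901). In pdx3-3 EGL3 was not called (log2 -0.50, adjusted p = 0.133). TTG1 (AT5G24520), the WD40 scaffold, was at 44.7, 48.1 and 50.2 CPM in pdx3-3, at 49.5, 46.7 and 52.3 CPM in pdx3-4 and at 45.9, 44.4 and 41.3 CPM in wild type and was not called (log2 0.06 for pdx3-3, adjusted p = 0.586, and 0.12 for pdx3-4, adjusted p = 0.269).

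GL3, the third bHLH gene, was not called (log2 -0.31 for pdx3-3, adjusted p = 0.577, and -0.09 for pdx3-4, adjusted p = 0.876). PAP1 (MYB75), the main anthocyanin MYB of seedlings, was chosen for full values after they were seen, at 0.314, 1.78 and 0.381 CPM in pdx3-3, 0.657, 0.865 and 0.675 CPM in pdx3-4 and 0.978, 0.684 and 1.07 CPM in wild type. Library 2 of pdx3-3 was the highest of the 9 and the other 2 pdx3-3 libraries the lowest. PAP1 was not called with all libraries (log2 -0.15 for pdx3-3, adjusted p = 0.853, and -0.35 for pdx3-4, adjusted p = 0.644), and without pdx3-3 library 2 it fell in pdx3-3 (log2 -1.40, adjusted p = 0.0196). The adjacent genes MYB113, MYB114 and PAP2 on chromosome 1 were not tested. PAP2 had 1, 3 and 0 counts in pdx3-3, 2, 1 and 1 in pdx3-4 and 5, 2 and 1 in wild type. MYB113 had 3, 0 and 0 counts in pdx3-3, 0, 0 and 3 in pdx3-4 and 0 in each wild-type library. MYB114 had no count in any library, which allows up to 0.137 CPM in the deepest library and 0.189 CPM in the shallowest (3 counts, counting error only).

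Both repressor genes fell in both mutants, against 17.5% of all genes tested in pdx3-3 and 18.4% in pdx3-4. MYB4 (AT4G38620, chr4:18053360-18055040), which represses C4H and the sinapate branch, was at 6.98, 4.81 and 4.96 CPM in pdx3-3, at 5.77, 5.96 and 4.91 CPM in pdx3-4 and at 14.1, 13.5 and 12.9 CPM in wild type. Its mutant libraries overlapped each other and lay well below wild type, and the log2 change was -1.34 in each (SE 0.14, adjusted p = 3.41e-05 in pdx3-3 and 3.22e-05 in pdx3-4). MYBL2 (AT1G71030), a MYB-like repressor of the anthocyanin complex, was at 134, 95.8 and 113 CPM in pdx3-3, at 116, 88.2 and 93.5 CPM in pdx3-4 and at 159, 161 and 149 CPM in wild type. It fell by 0.50 on the log2 scale in pdx3-3 (SE 0.13, adjusted p = 0.0119) and by 0.71 in pdx3-4 (SE 0.13, adjusted p = 0.00157), with neither mutant overlapping wild type.

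Tested directly between the mutants, 4 of the 34 genes differed: DFR was lower and 4CL1, CHI and UGT89C1 were higher in pdx3-3 than in pdx3-4, against 6.16% called, 2.84% lower and 3.32% higher, over all genes tested. For DFR the log2 difference was -1.53 (SE 0.31, adjusted p = 0.0177), and for UGT89C1 it was 0.85 (SE 0.13, adjusted p = 0.00415). For 4CL1 it was 0.42 (SE 0.08, adjusted p = 0.0166) and for CHI 0.45 (SE 0.11, adjusted p = 0.0395). In all 4 the pdx3-3 and pdx3-4 libraries did not overlap, but the 4 were picked by the test on these same libraries. Among the 40 genes, all pdx3-3 libraries lay below all pdx3-4 libraries in 6 and above them in 7. The share of all genes without overlap was not computed. UGT89C1 kept its call without any single library, whereas DFR lost it without pdx3-4 library 2 (adjusted p = 0.0639) or 3 (adjusted p = 0.0569). In the same way 4CL1 lost its call without pdx3-4 library 2 (adjusted p = 0.0745) or 3 (adjusted p = 0.093), and CHI lost it without wild-type library 2 or any 1 of the 6 mutant libraries (adjusted p 0.0505 to 0.169). TT19 was close to the threshold (log2 -1.08, SE 0.28, adjusted p = 0.0504) and passed it without wild-type library 2 (adjusted p = 0.0487) or 3 (adjusted p = 0.0248), and UGT78D1 (log2 0.43, adjusted p = 0.0645) passed it without wild-type library 1 (adjusted p = 0.0406) or 3 (adjusted p = 0.0183). PAL3 (adjusted p = 0.105) passed it without wild-type library 3 (adjusted p = 0.00885), with a log2 difference of -0.61 in both fits. The difference in CHS was not called (log2 0.29, adjusted p = 0.375). Library 3 of pdx3-3, at 76.0 CPM, lay below the pdx3-4 libraries (95.2, 82.2 and 87.2 CPM). Libraries 1 and 2 of pdx3-3, at 129 and 120 CPM, lay above them.

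**Figure D4:**
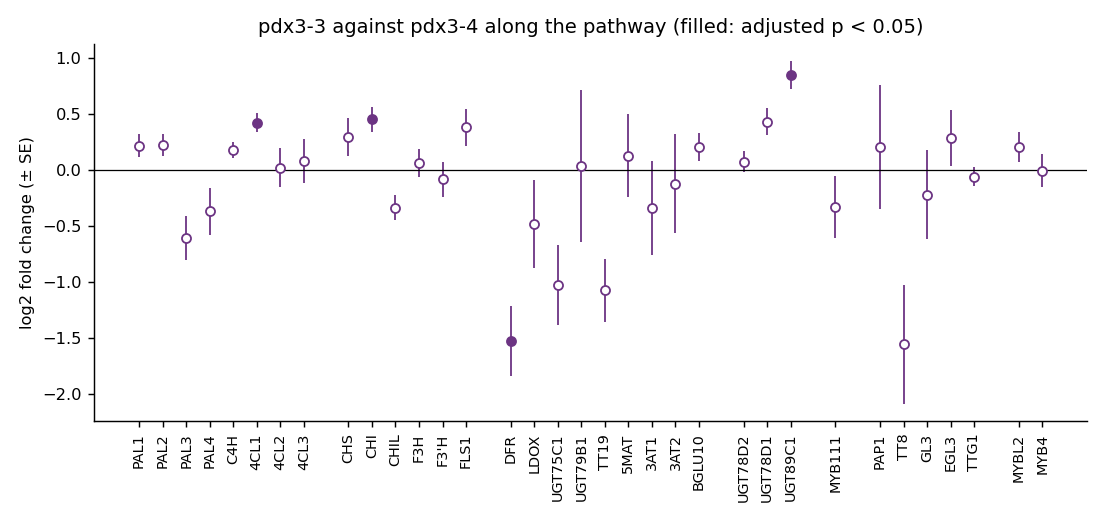
Log2 fold change of pdx3-3 against pdx3-4 (y axis) for the 34 tested genes in pathway order (x axis); points are edgeR estimates, bars are standard errors, and filled points have an adjusted p under 0.05. 4CL1, CHI and UGT89C1 are filled above 0, and DFR is filled below 0.

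With the 2 pdx3-3 libraries of high chloroplast share left out, which keeps only library 3 and assumes that it varies like the other genotypes, 5 called changes in pdx3-3 grew by over 1.5 times or close to it: those of the early gene CHS to -1.05 (adjusted p = 0.000624), of the late genes DFR to -2.86, LDOX to -2.84 and UGT79B1 to -5.15 (from 1 count in library 3), and of the bHLH gene TT8 to -3.74. The late genes UGT75C1 and TT19 were at -3.23 and -2.83 in that fit. In that fit UGT89C1 fell in pdx3-3 by 0.44 (adjusted p = 0.0339), and its difference between the mutants was 0.52 (adjusted p = 0.0868). The calls of 4CL1 (adjusted p = 0.23) and CHI (adjusted p = 0.539) between the mutants, and those of FLS1 (adjusted p = 0.187) and MYB111 (adjusted p = 0.0566) in pdx3-3, were lost in it. That fit rests on 1 pdx3-3 library, so its count of genes called is not read against those of the other fits.

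Genes of the neighbouring branches were read from lists beside the 40 genes. Of 11 monolignol genes, which make lignin precursors, 5 fell and 1 rose in pdx3-3 and 6 fell in pdx3-4. Over all genes tested, 17.5% fell and 19% rose in pdx3-3, and 18.4% fell and 20.9% rose in pdx3-4. HCT, the shikimate transferase, was at 198, 184 and 187 CPM in pdx3-3, at 172, 147 and 146 CPM in pdx3-4 and at 244, 226 and 208 CPM in wild type, with log2 changes of -0.31 for pdx3-3 (adjusted p = 0.0188) and -0.60 for pdx3-4 (adjusted p = 0.000359). The alcohol dehydrogenase gene CAD4 changed by -0.35 in pdx3-3 (adjusted p = 0.00509) and by -0.49 in pdx3-4 (adjusted p = 0.000535). The methyltransferase gene CCoAOMT1 had -0.14 for pdx3-3 (adjusted p = 0.0851) and -0.38 for pdx3-4 (adjusted p = 0.000435). The gene that rose was CCR2, a cinnamoyl-CoA reductase gene named after its values were seen, with 48, 34 and 46 counts in pdx3-3, 34, 22 and 25 in pdx3-4 and 7, 14 and 18 in wild type (log2 1.74, SE 0.35, adjusted p = 0.00264 in pdx3-3).

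Of the 5 sinapate ester genes, 4 were tested, and 1 fell in pdx3-3 and 2 in pdx3-4. The shares lower over all genes tested were 17.5% in pdx3-3 and 18.4% in pdx3-4, and the count in pdx3-3 lies near its share. UGT84A2, a sinapate glucosyltransferase gene, was at 15.8, 15.4 and 9.87 CPM in pdx3-3, at 14.1, 12.6 and 10.1 CPM in pdx3-4 and at 31.3, 23.7 and 22.0 CPM in wild type, with log2 changes of -0.97 for pdx3-3 (adjusted p = 0.00255) and -1.12 for pdx3-4 (adjusted p = 0.000939). Its relative UGT84A1 had -0.87 for pdx3-3 (adjusted p = 0.109) and -1.51 for pdx3-4 (adjusted p = 0.0145). The aldehyde dehydrogenase gene REF1 had 0.04 for pdx3-3 (adjusted p = 0.794) and -0.21 for pdx3-4 (adjusted p = 0.156). In the coumarin branch 2 of 5 genes were tested, and the hydroxylase gene F6'H1, which opens the way to scopoletin, had 60, 117 and 85 counts in pdx3-3, 60, 17 and 20 in pdx3-4 and 14, 0 and 0 in wild type. It rose in both mutants (adjusted p = 0.00181 for pdx3-3 and 0.0344 for pdx3-4), although pdx3-4 library 1 and wild-type library 1 carried most of the counts of their groups. COSY, the next enzyme, was not called (log2 -0.07 in pdx3-3 and -0.13 in pdx3-4). Thus 1 of the 2 tested coumarin genes rose in each mutant, against 19% of all genes tested in pdx3-3 and 20.9% in pdx3-4. Of the 8 proanthocyanidin genes, which act mainly in the seed coat, only AHA10 and TTG2 were tested and neither was called. Of all genes tested, 36.4% were called in pdx3-3 and 39.2% in pdx3-4. AHA10 had a log2 change of -0.39 in pdx3-3 and -0.10 in pdx3-4, and TTG2 of -0.36 in pdx3-3 and 0.18 in pdx3-4.

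Of 15 other regulators, 2 rose and 4 fell in pdx3-3, where 19% of all genes tested rose and 17.5% fell. In pdx3-4, 4 of them rose and 3 fell, where 20.9% of all genes tested rose and 18.4% fell, so these counts lie near the share over all genes. Kelch-domain F-box proteins mark PAL enzymes for degradation, and KFB01 (AT1G15670) was at 16.2, 14.7 and 17.2 CPM in pdx3-3, at 23.7, 19.8 and 22.1 CPM in pdx3-4 and at 4.27, 4.92 and 5.83 CPM in wild type. It rose by 1.62 on the log2 scale in pdx3-3 (SE 0.12, adjusted p = 2.66e-06) and by 2.07 in pdx3-4 (SE 0.12, adjusted p = 9.82e-07). KFB20 was at 223, 236 and 217 CPM in pdx3-3, at 219, 188 and 218 CPM in pdx3-4 and at 129, 121 and 113 CPM in wild type, and rose by 0.84 in pdx3-3 (adjusted p = 3.83e-05) and by 0.73 in pdx3-4 (adjusted p = 9.86e-05). The other PAL-binding F-box genes, named after their values were seen, were not called in pdx3-3. KFB39 had -0.30 for pdx3-3 (adjusted p = 0.104) and 0.42 for pdx3-4 (adjusted p = 0.0244), and KFB50 had -0.31 for pdx3-3 (adjusted p = 0.0501) and 0.14 for pdx3-4 (adjusted p = 0.361). TRY, a small MYB that competes for the bHLH partners, was at 2.26, 1.54 and 1.86 CPM in pdx3-3, at 1.92, 1.35 and 1.11 CPM in pdx3-4 and at 5.04, 7.38 and 5.19 CPM in wild type, and fell by 1.71 in pdx3-3 (adjusted p = 0.000257) and by 2.07 in pdx3-4 (adjusted p = 7.35e-05). Between the mutants 4 of the 15 were lower in pdx3-3 than in pdx3-4, against 2.84% of all genes tested. They were KFB01 (log2 -0.45, adjusted p = 0.0315), KFB39 (log2 -0.72, adjusted p = 0.0107), KFB50 (log2 -0.45, adjusted p = 0.0398) and LBD38 (log2 -0.53, adjusted p = 0.0147). LBD38 is a nitrate-responsive repressor of anthocyanin genes, also named after its values were seen. No call of the neighbouring lists was tried with libraries left out. Leaving out pdx3-4 library 3 cut the genes called between the mutants from 1157 to 391.

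**Figure D5:**
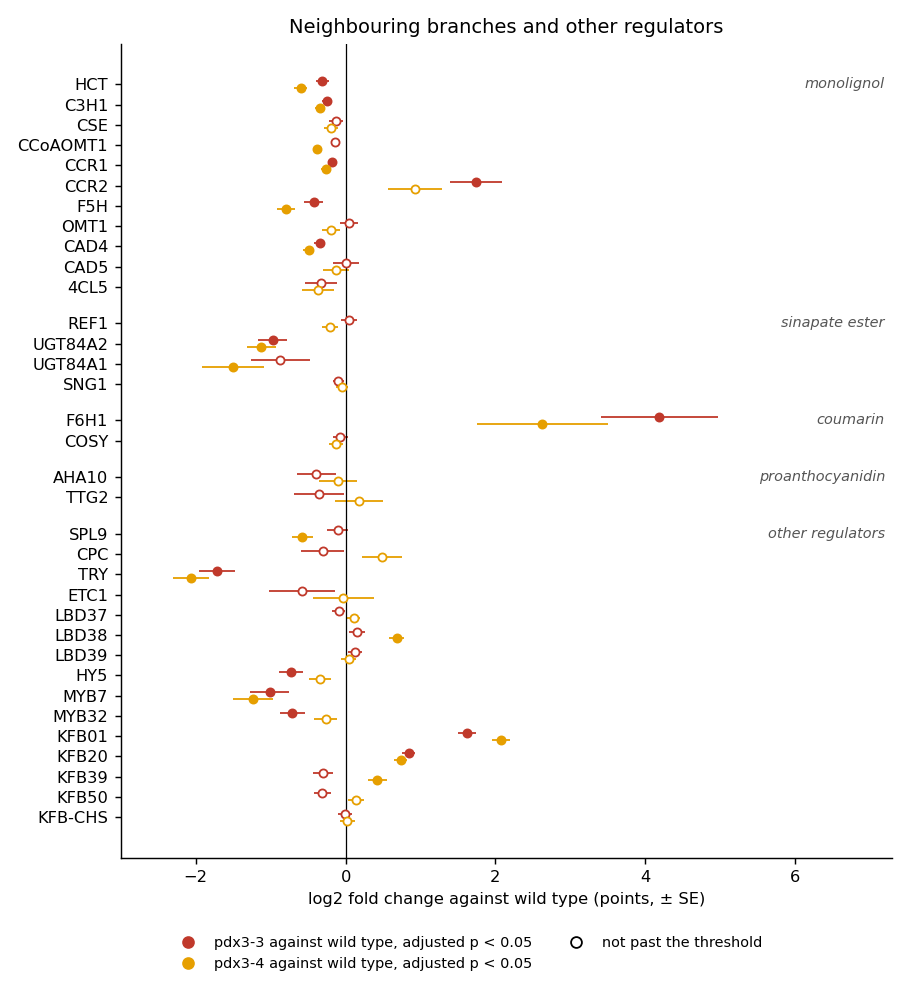
Log2 fold change of the tested genes of the monolignol, sinapate ester, coumarin and proanthocyanidin branches and of other regulators in pdx3-3 and in pdx3-4, each against wild type; points are edgeR estimates, bars are standard errors, and filled points have an adjusted p under 0.05 (F6H1 is F6'H1). KFB01, KFB20 and F6'H1 are filled right of 0 in both mutants, and HCT, CAD4, UGT84A2 and TRY are among those filled left of 0 in both.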

How the data were processed

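The deposited files hold whole-number counts per gene for each of the 9 libraries, not normalized by the authors. Per the labels' protocols, polyA RNA was prepared with a stranded TruSeq kit and sequenced on 1 pool; the submitters' processing notes name FastQC, TopHat2 (version 2) and TAIR10. The counting tool and its strand setting are not given in the sources used here; antisense or overlapping partners and near-identical copies are therefore uncertain. Counts were fitted with edgeR 4.0.16 (R 4.3.3) in 1 model of the 9 libraries by genotype. The fit used filterByExpr (count minimum 10), TMM scaling and the quasi-likelihood test, and 18783 of 33602 genes were tested. Each standard error (SE) was derived as the size of the log2 change over the square root of that test's F statistic. It is not a value that edgeR reports. It was also run on simulated counts drawn with edgeR's own dispersions and few changed genes. With 36.4% of genes called in pdx3-3 and 39.2% in pdx3-4, that run cannot check the scaling. CPM is the count over the library total, times 1000000. limma 3.58.1, DESeq2 1.42.0, other scalings, filters and left-out libraries were alternatives. Gene coordinates and sequences are RefSeq TAIR10.1.

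The 40 genes, the neighbouring lists and the markers were chosen with earlier results of these data known. All 40 genes are named by step. Values in every library are given for up to 3 genes of each step with the smallest adjusted p against wild type in either mutant, and for genes called in 1 mutant that differ between mutants. Up to 3 genes of each neighbouring list are named by the same measure, some by their log2 change alone. Genes of other lists named outside this rule, and any of the 40 genes given in every library outside it, were chosen after their values were seen. Replicates differed by more than counting noise in every pair (chi-square per degree of freedom 5.34 to 25.5). At the depth of 15912737 to 21938941 counts, 6 of the 40 genes did not pass the filter on low counts. Low depth and low expression were not told apart.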

Additional observations from a re-analysis of the deposited data

Results flagged for a closer look

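In 4 genes the change relative to wild type differed between the mutants by a direct test of pdx3-3 against pdx3-4 (edgeR quasi-likelihood test, Benjamini-Hochberg adjusted over all genes tested). UGT89C1, the flavonol 7-O-rhamnosyltransferase gene, had a log2 difference of 0.8455 (adjusted p = 0.00415) and was higher in 3 of 3 pdx3-3 libraries than in any pdx3-4 library. 4CL1 had a log2 difference of 0.4213 (adjusted p = 0.0166) and CHI one of 0.4531 (adjusted p = 0.0395), each again with 3 of 3 pdx3-3 libraries above every pdx3-4 library. DFR, the first late anthocyanin step, had a log2 difference of -1.529 (adjusted p = 0.0177), with 3 of 3 pdx3-3 libraries below every pdx3-4 library. The calls of 4CL1, CHI and DFR are lost without some single libraries, as given with them above. The separation of the libraries adds no support, because the 4 genes were picked by the test on these same libraries.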

How the results depend on the processing

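Of 78 comparisons of the 34 tested genes, 43 kept their direction and their side of the threshold under every alternative that gave them a value (17 to 19 of the 19 run). So did 32 of the 46 called. Between the mutants, genes with an adjusted p of 0.15 or more with all libraries were left out of these tallies. Within the 78, 11 changed sign under some alternative, none of them called with all libraries. Leaving out 1 library at a time gave 5259 to 6832 genes called in pdx3-3, 5837 to 7483 in pdx3-4 and 391 to 1816 between the mutants (6846, 7369 and 1157 with all); of the 34 genes, 18 to 21 fell in pdx3-3, 16 to 22 fell and 0 to 1 rose in pdx3-4, and 0 to 3 were lower and 1 to 4 higher in pdx3-3 than in pdx3-4. Without pdx3-3 replicates 1 and 2 (added after seeing the data), 4014 genes were called in pdx3-3 and 358 between the mutants, where 0 of the 34 were higher. The count lower between the mutants was 2 with no filter, 2 with DESeq2 and 3 with only the 2 genotypes compared, against 1. Upper-quartile scaling moved the median of all genes to -0.149 in pdx3-3 and -0.132 in pdx3-4, so that 34.1% and 36.8% of calls were higher, against 52.0% and 53.2% with TMM and 62.1% and 61.5% with library size only; 23 of the 34 genes fell in each mutant with it, and 18 and 21 with library size only.

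Pairing of the samples by replicate number was not shown. Deviations from the genotype means correlated at -0.150 to 0.343 for the same number and -0.313 to 0.318 for other numbers. Not every library correlated best with its own number. Such deviations sum to 0 within a genotype, so these correlations cannot exclude a batch shared by number. With the number as a replicate block, 19 genes fell in pdx3-3 and 21 in pdx3-4, and 2 were lower and 4 higher in pdx3-3 than in pdx3-4.

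Sign changes within the 78 comparisons, all in uncalled log2 changes, were these. With upper-quartile scaling, C4H was -0.109 and TTG1 -0.0587 in pdx3-3; with library size only, PAL4 was 0.000644 and BGLU10 0.0201 in pdx3-4; without pdx3-3 replicates 1 and 2, C4H was -0.065 in pdx3-3. Leaving out 1 library gave ranges that cross 0, in pdx3-3 of -0.424 to 0.0464 for PAL3, -0.0509 to 0.0566 for C4H, -0.203 to 0.133 for 4CL2, -0.207 to 0.025 for UGT89C1, -1.40 to 0.219 for PAP1 and -0.571 to 0.0489 for GL3, and in pdx3-4 of -0.287 to 0.162 for PAL4, -0.223 to 0.114 for 4CL2, -0.177 to 0.0753 for BGLU10 and -0.262 to 0.154 for GL3. The cause was not tested. Genes with few counts, such as TT8 and UGT79B1, are limited by depth.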
